A study of Mus musculus with 16 samples.

Results

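Genes for receptor chains of the interleukin-6 (IL-6) family and for the granulocyte colony-stimulating factor (G-CSF) receptor were followed in chromatin accessibility data from mouse hematopoietic progenitor cells: Il6ra, Il6st, Osmr, Lifr, Il11ra1 and Csf3r. The genes were taken from a fixed list, 6 of 21755 protein-coding genes on chromosomes 1 to 19 and X, and 89 of 90549 accessible regions lay within 100 kb of their GENCODE M21 5' ends (GRCm38, mm10). Il6ra had 30 regions, Csf3r 23, Il11ra1 18, Il6st 10, Osmr 4 and Lifr 4. Only 29 of the 89 regions had the receptor gene as the nearest protein-coding 5' end, and the neighbouring genes are named below.

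IL-6 family cytokines share gp130, encoded by Il6st, as the signal-transducing chain. Il6ra and Il11ra1 encode ligand-binding chains for IL-6 and IL-11, whereas Lifr and Osmr encode signalling chains that pair with gp130 for leukemia inhibitory factor and oncostatin M. Csf3r encodes the G-CSF receptor, which forms homodimers and directs granulocyte production, and all of these receptors signal through JAK kinases and STAT transcription factors.

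Accessibility had been measured by ATAC-Seq, which tags open DNA with a transposase, in 16 libraries of mouse fetal liver progenitors that an estrogen-dependent HoxB8 keeps growing. Cells with an intact distal enhancer of Gata2 received an empty retrovirus (hi-77+/+ empty). Cells lacking this enhancer on both alleles (hi-77-/-) received an empty retrovirus, a retrovirus encoding GATA2, or one encoding 9aa-Ins, a disease-linked GATA2 variant with an amino acid insertion, with 4 libraries in each group. All cells were grown with β-estradiol, infected with retrovirus 3 d before sorting, and 50000 cells were used. The labels name no separate lines within a genotype, so genotype and cell line cannot be told apart, and p-values measure the spread between these libraries. GATA2 was expressed from a retroviral vector and not from its own locus.

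Each library was available as a list of peaks, from 50195 to 112267 per library, and the read totals behind the lists are unknown. The 49000 most significant peaks of each library were ranked and overlapping peaks of all libraries were merged into regions. The rank score of a region runs from 100 for the most significant peak of a library down towards 0 for the last of the 49000, and is 0 where the library has no peak among them. It is an order within a library and not an amount of accessibility. Tied peaks shared their mean rank. Of 10 progenitor marker genes, 8 (among them Kit, Cd34, Spi1 and Flt3) had a promoter peak in every library, and none of 5 hepatocyte markers had one in any. Of 7 granulocytic markers, 2 to 3 had a promoter peak in hi-77+/+ empty, 3 to 4 in hi-77-/- empty, 4 to 5 in GATA2 and 5 to 6 in 9aa-Ins libraries. Of 5 monocytic markers, 3 to 4 had one in 9aa-Ins libraries and 2 in all other libraries. Ly6c2 had one in all 9aa-Ins libraries and in no other, and Irf8 and Klf4 had one in every library. Of 4 mast or basophil markers, 1 had a peak in hi-77+/+ empty, 1 to 2 in hi-77-/- empty, 2 to 3 in GATA2 and 1 to 2 in 9aa-Ins libraries. Among them, Cpa3 had one in all GATA2 libraries and in no other. Of 4 B-lymphoid markers, 1 to 3 had a peak in hi-77+/+ empty, 2 in hi-77-/- empty, 1 in GATA2 and 2 in 9aa-Ins libraries. Ebf1 had one in every library, and Cd79a had none in GATA2 and one in all but 1 of the other libraries. Of 3 endothelial and 3 stromal markers, Pecam1 and Col1a1 had one in most libraries. The contribution of these marker differences to the results below was not tested.

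Regions were compared with limma over all 71419 regions that had a peak in at least 2 libraries (72 of the 89), with Benjamini-Hochberg adjustment over all of them, and every adjusted p below is from that fit unless another test is named. The GATA2 and 9aa-Ins comparisons share the hi-77-/- empty libraries. In hi-77-/- empty against hi-77+/+ empty, 16 of the 72 regions were higher and 9 lower, where 16.5% and 16.1% of all regions were called. In GATA2 against hi-77-/- empty, 3 were higher and 13 lower (7.02% and 9.59% of all regions). In 9aa-Ins against hi-77-/- empty, 6 were higher and 2 lower (4.15% and 1.32%). In 9aa-Ins against GATA2, 18 were higher and 2 lower (12.7% and 6.89%). The median difference over the 72 regions was 2.32 rank score units for the deletion, -2.84 for GATA2 against hi-77-/- empty, -0.13 for 9aa-Ins against hi-77-/- empty and 2.71 for 9aa-Ins against GATA2, and 0 over all regions in each comparison. The higher calls with the deletion were in Il6ra (6), Il6st (6), Lifr (3) and Osmr (1), and the lower ones in Il11ra1 (7) and Csf3r (2). Counting only regions whose nearest gene was the receptor gene, the deletion left 9 higher and 0 lower calls, GATA2 1 higher and 7 lower, and 9aa-Ins against GATA2 11 higher and 1 lower. No share over all regions was computed for these nearest-gene counts.

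**Figure D1:**
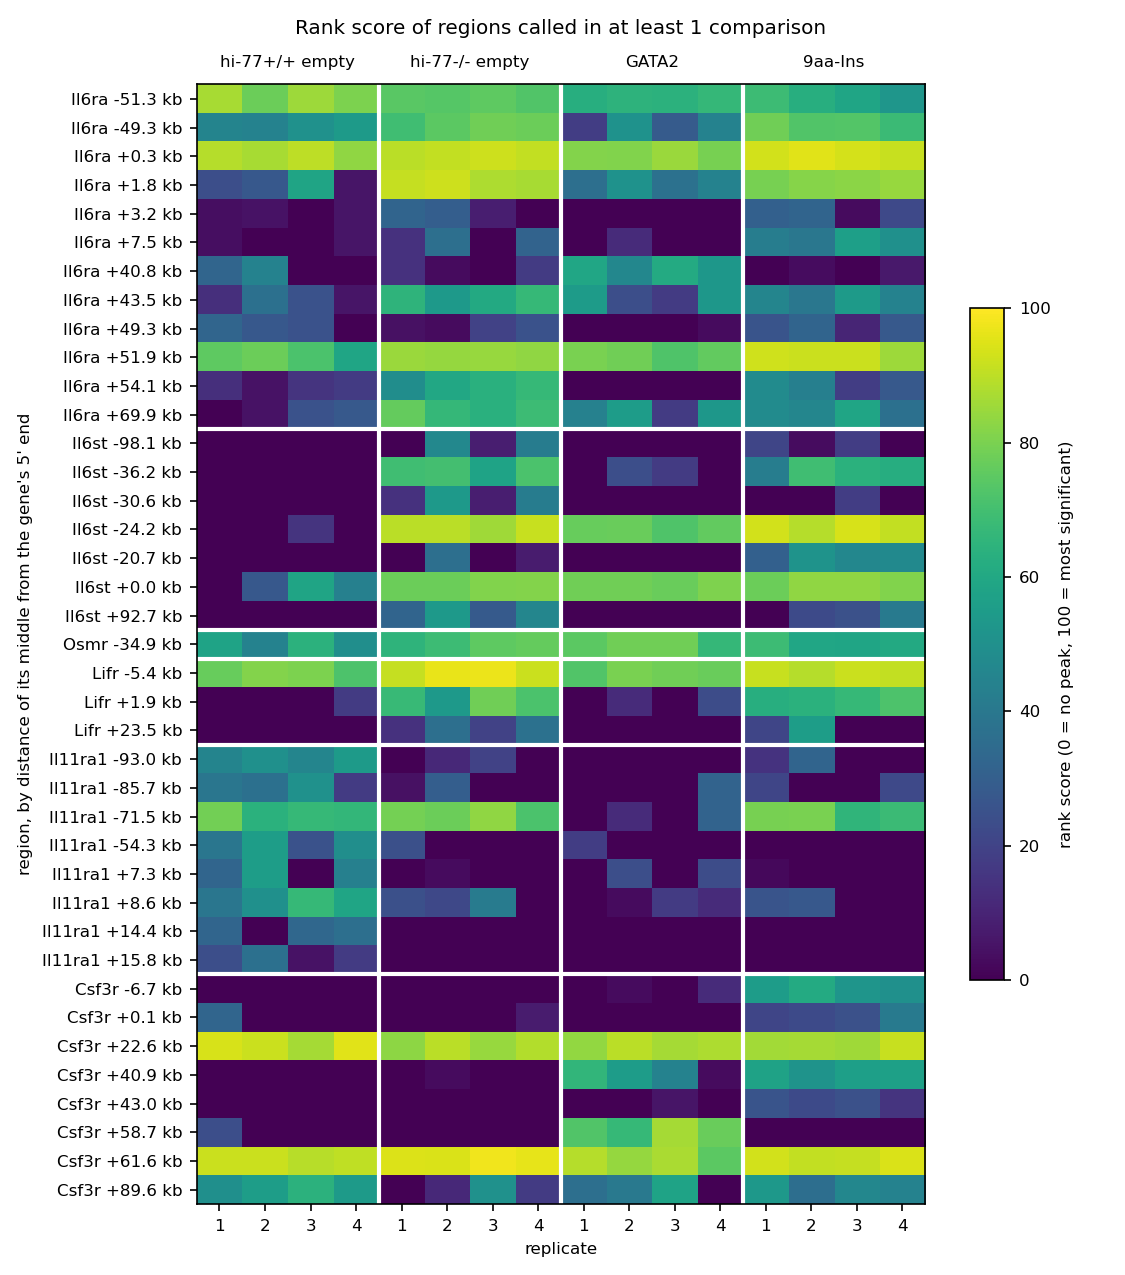
Rank score of the 39 regions called in at least 1 of the 4 comparisons (rows, ordered by gene and by distance of the region's middle from the 5' end) in the 16 libraries (columns, replicates 1 to 4 of each group). Colour runs from 0 (no peak among the 49000) to 100. The Il6st rows are at 0 to 15.2 in hi-77+/+ empty apart from the promoter, and the Csf3r +58.7 kb row is bright in GATA2.

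Il6st had few peaks in hi-77+/+ empty and many in hi-77-/- empty cells. The number of regions with a peak within 100 kb was 1, 2, 3 and 2 in hi-77+/+ empty, 6, 9, 7 and 10 in hi-77-/- empty, 3, 3, 4 and 4 in GATA2 and 6, 8, 8 and 6 in 9aa-Ins libraries. The first 2 groups did not overlap, nor did GATA2 and hi-77-/- empty. The mean rose by 6 regions with the deletion (SE 0.755, limma over 20142 genes, adjusted p = 5.19e-06), and with GATA2 it fell by 4.5 (SE 0.755, adjusted p = 0.000705), a call lost with all deposited peaks (-4). The 9aa-Ins libraries had a mean of 7, at a difference of -1 from hi-77-/- empty (adjusted p = 0.646), and their difference from GATA2 was 3.5 (adjusted p = 0.0039). With the deletion, 11% of all genes gained and 20.9% lost regions. In GATA2 4.69% gained and 6.43% lost, in 9aa-Ins against hi-77-/- empty 1.79% gained and 0.139% lost, and against GATA2 10.1% gained and 3.13% lost. Peaks covered 333 ± 145 bp of this window in hi-77+/+ empty, 3036 ± 424 bp in hi-77-/- empty, 1576 ± 404 bp in GATA2 and 3513 ± 393 bp in 9aa-Ins libraries (SD, n = 4). The first difference, 2703 bp, and the second, -1460 bp, each had the smallest p that 4 against 4 libraries allow (two-sided exact permutation p = 0.0286). Covered bases were computed for the receptor genes only, so no share over all genes stands beside these p-values. The GATA2 mean was below that of hi-77-/- empty at every receptor gene, and a difference in peak width over whole libraries was not tested.

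The region with the largest deletion difference of the 72 was 24.2 kb upstream of Il6st (chr13:112439264-112440499, intergenic, Il6st the nearest protein-coding gene). Its rank score was 0, 0, 15.2 and 0 in hi-77+/+ empty and 89.8, 89.6, 85.7 and 91.4 in hi-77-/- empty libraries. It was 76.7, 77.1, 72.6 and 76.0 in GATA2 and 93.1, 88.8, 93.9 and 90.6 in 9aa-Ins libraries. The hi-77+/+ empty libraries lay far below all others, and GATA2 libraries lay below all of those with hi-77-/- empty or 9aa-Ins. The deletion difference was 85.3 (SE 3.81, adjusted p = 1.82e-11). It was 22.9 and passed no test (adjusted p = 0.35) when a peak had to cover 50% of the region, which is 1236 bp long. With GATA2 the score fell by 13.5 (adjusted p = 0.0178), a call lost without GATA2 replicate 3 or hi-77-/- empty replicate 4 (highest adjusted p = 0.0574), and 9aa-Ins exceeded GATA2 by 16.01 (adjusted p = 0.00485). With all deposited peaks the deletion difference was 55.8 (adjusted p = 7.65e-05), and the GATA2 difference of -5.93 and the 9aa-Ins against GATA2 difference of 7.02 passed no test (adjusted p = 0.81 and 0.65). Among peaks narrower than 1 kb the last difference was reversed (-80.1, adjusted p = 5.74e-07). The pileup at the summit, the number of read fragments stacked there in the full lists, was 6, 0, 10 and 8 in hi-77+/+ empty, 32 to 49 in hi-77-/- empty, 20 to 25 in GATA2 and 54 to 61 in 9aa-Ins libraries, and it is not adjusted for depth.

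A region 36.2 kb upstream (chr13:112427556-112428155, intergenic) had a score of 0 in all hi-77+/+ empty libraries and 69.2, 70.3, 57.9 and 71.5 in hi-77-/- empty. In GATA2 it was 0, 24.1, 17.3 and 0, and in 9aa-Ins 42.4, 69.5, 64.0 and 62.3. GATA2 libraries were all below those of hi-77-/- empty and 9aa-Ins. The difference was 67.2 with the deletion (adjusted p = 1.92e-06), -56.9 with GATA2 (adjusted p = 1.91e-05) and 49.2 in 9aa-Ins against GATA2 (adjusted p = 9.31e-05). The 200 bases around the summits of these 2 regions, from the mm10 reference plus strand, are printed to show what lies under the Il6st peaks. Capitals mark matches, on either strand, to any of 6 motifs. The GATA motif was read in the forms AGATAA and, differing in the last base, AGATAG, and also in the forms TGATAA and, differing in the last base, TGATAG. The ETS motif was read as AGGAAG, and the motif of RUNX factors as TGTGGT. That of EBF was CCCNNGGG and that of STAT was TTCNNNGAA, and the pattern searched for CEBP was TTGCNNCAA. This CEBP pattern has 2 free bases and cannot match sites with 1, such as TTGCACAA. CEBP sites of that spelling were not counted, and no CEBP share or lack of a match given here covers them.
Il6st -24.2 kb, chr13:112440007-112440206: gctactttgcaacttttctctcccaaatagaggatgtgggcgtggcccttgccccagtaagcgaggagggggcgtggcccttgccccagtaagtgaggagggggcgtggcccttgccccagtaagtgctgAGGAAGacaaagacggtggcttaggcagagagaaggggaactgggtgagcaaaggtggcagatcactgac
Il6st -36.2 kb, chr13:112427822-112428021: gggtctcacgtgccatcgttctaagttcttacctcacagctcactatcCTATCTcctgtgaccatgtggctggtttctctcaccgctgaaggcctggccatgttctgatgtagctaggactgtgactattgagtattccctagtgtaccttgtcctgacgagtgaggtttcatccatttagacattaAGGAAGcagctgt
The first window held 1 ETS match and no GATA match, and the second held 1 ETS match and 1 GATA match with an E-box (CANNTG) close to it. Of 90532 such windows over all regions, 26.3% held a GATA match, 39.3% an ETS match and 3.38% a GATA match with an E-box close by. The CEBP and STAT motifs as written, absent from both, were in 1.68% and 4.78%. A match is letters only and not a bound site.

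Other regions in the Il6st window were weaker. At 30.6 kb upstream the score was 0 in every hi-77+/+ empty and GATA2 library and 14.3, 54.3, 8.51 and 41.8 in hi-77-/- empty, a difference of 29.7 with the deletion (adjusted p = 0.00783) and -29.7 with GATA2 (adjusted p = 0.0137). At 98.1 kb upstream, in an intron of Ankrd55, the deletion difference was 24.3 (adjusted p = 0.0352). That call was lost without hi-77-/- empty replicate 2 or 4 or without any hi-77+/+ empty library (highest adjusted p = 0.124). At 92.7 kb downstream, in an intron of Il31ra, which encodes another chain of this family, the score was 0 in all hi-77+/+ empty and GATA2 libraries and 32.4, 54.3, 28.3 and 45.8 in hi-77-/- empty. The differences were 40.2 (adjusted p = 0.000541) and -40.2 (adjusted p = 0.0009). A region 20.7 kb upstream scored 30.8, 51.2, 46.4 and 47.4 in 9aa-Ins against 0, 36.5, 0 and 7.53 in hi-77-/- empty and 0 in GATA2. The 9aa-Ins and hi-77-/- empty libraries overlapped. The score was higher in 9aa-Ins by 32.9 (adjusted p = 0.00981), or 18.8 with all deposited peaks (adjusted p = 0.537), and higher than in GATA2 by 43.9 (adjusted p = 0.000245).

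The Il6st promoter (chr13:112463643-112464588, 5' UTR and upstream) was weak in hi-77+/+ empty, at 0, 27.7, 58.4 and 43.6, and at 77.7, 77.7, 80.9 and 81.5 in hi-77-/- empty libraries. The deletion difference was 47.0 (SE 7.70, adjusted p = 0.000127). It was 78.4, 78.5, 77.1 and 80.6 in GATA2 and 77.4, 83.5, 83.4 and 81.1 in 9aa-Ins. The difference from hi-77-/- empty was -0.79 in GATA2 (SE 7.70, adjusted p = 1) and 1.91 in 9aa-Ins (SE 7.70, adjusted p = 1). The difference between promoter and upstream changes was not itself tested.

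**Figure D2:**
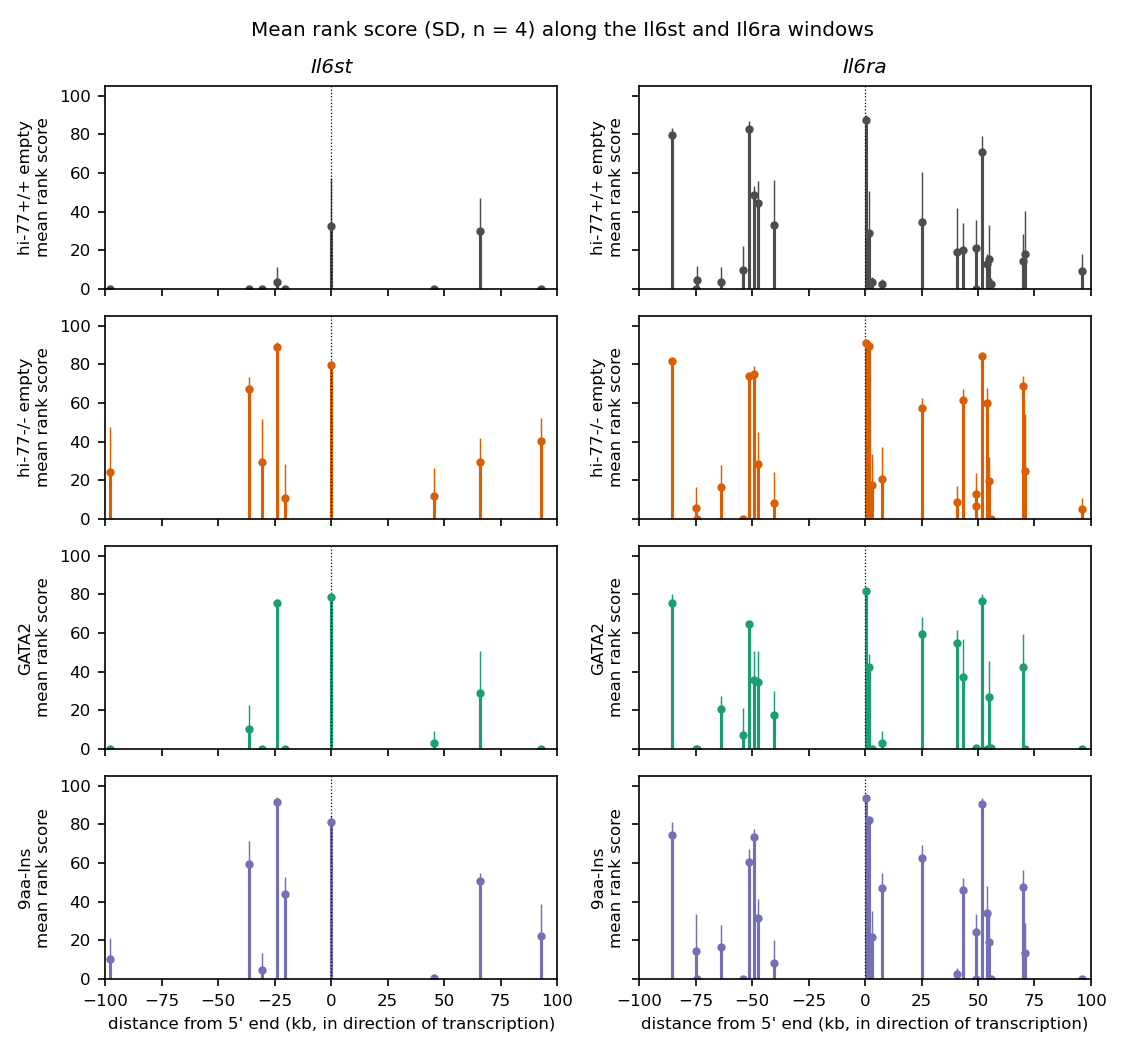
Mean rank score with SD (n = 4 libraries) of each region seen in at least 2 libraries, against the distance of its middle from the 5' end of Il6st (left) and Il6ra (right), 1 row per group. In the Il6st column the regions 24.2 and 36.2 kb upstream are near 0 in hi-77+/+ empty, at 89.1 and 67.2 in hi-77-/- empty, and at 75.6 and 10.3 in GATA2.

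Il6ra (chromosome 3, 89864059 to 89913196, minus strand) had a strong promoter peak in every library and its largest deletion difference lay in an intron close to the 5' end. A region 1.8 kb into the gene (chr3:89911018-89911818, intronic) scored 24.2, 27.7, 58.4 and 5.74 in hi-77+/+ empty and 91.4, 92.2, 87.6 and 86.8 in hi-77-/- empty libraries. It was at 36.7, 51.1, 37.5 and 44.4 in GATA2 and 79.3, 81.9, 82.5 and 84.6 in 9aa-Ins. The hi-77-/- empty and 9aa-Ins libraries lay above every hi-77+/+ empty and GATA2 library. The differences were 60.5 with the deletion (SE 7.40, adjusted p = 6.31e-06), -47.1 with GATA2 (adjusted p = 0.000136) and 39.7 in 9aa-Ins against GATA2 (adjusted p = 0.000681). At the promoter (chr3:89912096-89913782) scores were 88.8, 87.0, 90.0 and 83.5 in hi-77+/+ empty, 89.8, 90.9, 92.5 and 90.8 in hi-77-/- empty, 81.3, 81.1, 84.9 and 79.6 in GATA2 and 93.1, 95.5, 93.4 and 91.8 in 9aa-Ins. In GATA2 it fell by 9.31 (SE 1.62, adjusted p = 0.000373), and 9aa-Ins exceeded GATA2 by 11.7 (adjusted p = 3.87e-05). The deletion difference was 3.73 (adjusted p = 0.0854).

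A region 40.8 kb into Il6ra (chr3:89872192-89872638, intronic) went the other way. Its score was 59.0, 46.3, 61.3 and 53.0 in GATA2, against 14.3, 2.81, 0 and 17.3 in hi-77-/- empty, 0, 3.24, 0 and 6.79 in 9aa-Ins and 32.6, 44.2, 0 and 0 in hi-77+/+ empty. GATA2 libraries were above all others. The GATA2 difference from hi-77-/- empty was 46.3 (SE 8.94, adjusted p = 0.000988), and 9aa-Ins was lower than GATA2 by -52.4 (adjusted p = 0.000299). With all deposited peaks the first difference was 21.5 and passed no threshold (adjusted p = 0.169).
Il6ra +1.8 kb, chr3:89911294-89911493: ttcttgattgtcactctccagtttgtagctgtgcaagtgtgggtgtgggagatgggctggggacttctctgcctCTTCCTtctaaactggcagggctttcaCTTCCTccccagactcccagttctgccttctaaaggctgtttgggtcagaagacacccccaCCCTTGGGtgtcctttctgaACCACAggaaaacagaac
Il6ra +40.8 kb, chr3:89872287-89872486: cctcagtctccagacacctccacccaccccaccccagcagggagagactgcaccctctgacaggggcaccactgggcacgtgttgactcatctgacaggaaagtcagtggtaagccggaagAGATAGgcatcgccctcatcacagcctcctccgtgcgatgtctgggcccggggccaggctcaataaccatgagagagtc
These 200 bases, from the mm10 plus strand, are shown because GATA2 moved the 2 regions in opposite directions. The first held 2 ETS, 1 RUNX and 1 EBF match and the second 1 GATA match. Over all regions 24.6% of windows held a RUNX and 9.61% an EBF match.

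Further from the 5' end, several Il6ra regions were nearer to She or Atp8b2 than to Il6ra. At 54.1 kb (intergenic, She nearest) the score was 13.6, 4.73, 15.2 and 17.4 in hi-77+/+ empty, 59.9 ± 7.71 in hi-77-/- empty (SD, n = 4, lowest 49.2) and 0 in all GATA2 libraries. It fell by 59.9 with GATA2 (adjusted p = 7.86e-06) and differed by 47.2 with the deletion (adjusted p = 6.17e-05). In the full lists the deletion difference was 21.1 and passed no test (adjusted p = 0.0991). 9aa-Ins libraries lay between, at 48.3, 43.0, 18.3 and 27.9. The difference of 34.4 from GATA2 passed the test (adjusted p = 0.00187), and that of -25.5 from hi-77-/- empty did too (adjusted p = 0.0445). The second call was lost without hi-77-/- empty replicate 2, 3 or 4 or 9aa-Ins replicate 3 or 4 (highest adjusted p = 0.156). At 69.9 kb, in an intron of She, the deletion difference was 54.2 (adjusted p = 9.27e-05), and the GATA2 difference of -26.4 (adjusted p = 0.0413) was lost without GATA2 replicate 1 or 3 or any hi-77-/- empty library (highest adjusted p = 0.146). At 51.9 kb the score was higher by 13.5 with the deletion (adjusted p = 0.00286) and by 13.7 in 9aa-Ins against GATA2 (adjusted p = 0.00395). At 43.5 kb, in the Il6ra 3' UTR, it was higher by 41.5 with the deletion (adjusted p = 0.00128), and GATA2 libraries ranged from 17.3 to 54.8. The 3 higher calls of smallest margin, in 9aa-Ins against GATA2 at 49.3 kb (23.4, adjusted p = 0.0371) and 3.2 kb (22.0, adjusted p = 0.0461), and against hi-77-/- empty at 7.5 kb (26.6, adjusted p = 0.0461), were each lost without at least 6 of the 8 libraries in turn. Against GATA2, the 7.5 kb region was higher by 44.1 (adjusted p = 0.000312). Regions at the Atp8b2 promoter, 49.3 and 51.3 kb upstream of Il6ra, included 1 at 75.0 ± 4.07 in hi-77-/- empty and 35.5 ± 15.0 in GATA2 (SD, n = 4, difference -39.4, adjusted p = 9.49e-05). That call was lost among peaks with -log10 q of 5 or more and among peaks narrower than 1 kb (-2.78). It was also lost with 50% coverage (-17.3) and with summit windows (0.64). The other region was lower in 9aa-Ins than in hi-77-/- empty by -13.5 (adjusted p = 0.0189, lost without hi-77-/- empty replicate 3 or 9aa-Ins replicate 3 or 4, highest adjusted p = 0.0639). The number of Il6ra regions with a peak was 18 ± 1.63, 18 ± 0.816, 15.3 ± 1.71 and 18.3 ± 0.5 in the 4 groups in the order given above (SD, n = 4). Only 9aa-Ins against GATA2 passed the test (3 regions, adjusted p = 0.0463). Peaks covered 7076 ± 575 bp in hi-77-/- empty and 4317 ± 1082 bp in GATA2 libraries (SD, n = 4, two-sided exact permutation p = 0.0286). For covered bases no share over all genes was computed.

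Lifr and Osmr, the chains that pair with gp130, lie near each other on chromosome 15. Neither had a region within 1 kb of its GENCODE 5' end. The RefSeq 5' ends of Lifr, 39.0 and 49.9 kb from the GENCODE one, had no region within 1 kb either. At 1.9 kb inside Lifr (chr15:7092281-7092834, intronic) the score was 0, 0, 0 and 17.4 in hi-77+/+ empty, 67.2, 54.3, 78.2 and 71.5 in hi-77-/- empty, 0, 12.3, 0 and 23.2 in GATA2 and 62.6, 64.0, 67.1 and 72.1 in 9aa-Ins libraries. The groups fell into a low pair and a high pair with no overlap between them. The difference was 63.5 with the deletion (SE 7.35, adjusted p = 3.06e-06), -58.9 with GATA2 (adjusted p = 1.11e-05) and 57.6 in 9aa-Ins against GATA2 (adjusted p = 1.69e-05). At 5.4 kb upstream the same order held at high scores, 77.7 ± 4.28, 94.3 ± 2.97, 77.1 ± 2.94 and 90.7 ± 1.35 (SD, n = 4), with differences of 16.6, -17.1 and 13.6 (adjusted p = 1.32e-05, 1.53e-05 and 0.000171). Among the ranked peaks, the region at 23.5 kb had one in all hi-77-/- empty libraries and in no hi-77+/+ empty or GATA2 library. Its deletion difference was 26.9 (adjusted p = 0.0349). That call was lost without hi-77-/- empty replicate 2 or 4 or any hi-77+/+ empty library (highest adjusted p = 0.0968). The full lists held weak summits there in hi-77+/+ empty libraries, of 6, 4, 0 and 6 stacked fragments. They held 8, 11, 9 and 13 in hi-77-/- empty, 14, 24, 9 and 8 in 9aa-Ins and 0 in every GATA2 library, not adjusted for depth. The number of Lifr regions with a peak rose by 1.5 with the deletion (adjusted p = 0.0123) and fell by 1.75 with GATA2 (adjusted p = 0.0127), calls that were both lost with all deposited peaks. The 200 bases around the summit of the intronic region, from the mm10 plus strand, held 1 RUNX match.
Lifr +1.9 kb, chr15:7092359-7092558: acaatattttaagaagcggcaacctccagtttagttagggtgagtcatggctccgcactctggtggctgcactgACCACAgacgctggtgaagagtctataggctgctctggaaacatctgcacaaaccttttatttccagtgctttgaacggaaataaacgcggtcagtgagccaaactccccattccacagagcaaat
Osmr had 4 regions, of which 2 were seen in at least 2 libraries. The only region with a peak in all 16 libraries, 34.9 kb upstream and intergenic, scored 58.0, 44.2, 64.4 and 49.6 in hi-77+/+ empty and 65.1, 68.4, 75.3 and 76.3 in hi-77-/- empty. The difference was 17.2 (adjusted p = 0.00758). GATA2 libraries ranged from 66.5 to 78.5 and 9aa-Ins libraries from 58.7 to 68.4, and no other comparison passed the test.

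**Figure D3:**
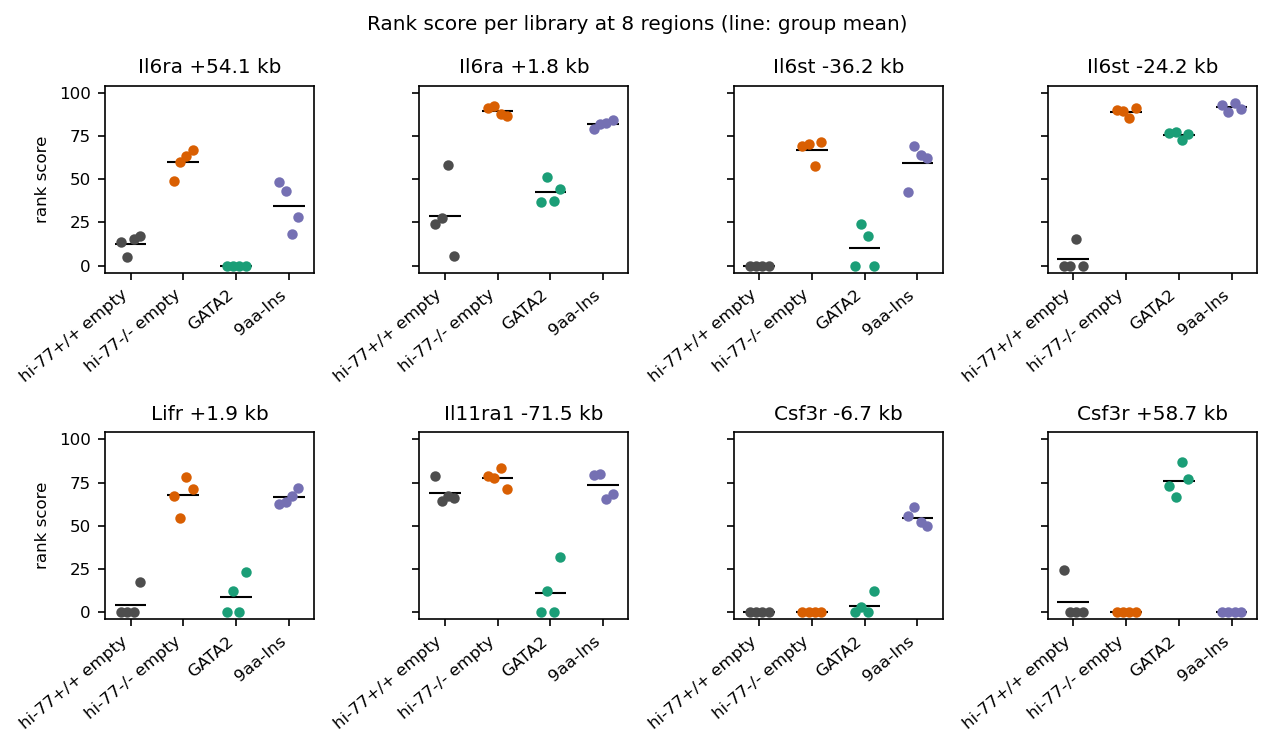
Rank score (0 to 100) per library at the 8 regions with the smallest adjusted p in any comparison, coloured by group, with the group mean as a line. The 24.2 kb upstream Il6st, Il6ra +1.8 kb and Lifr +1.9 kb regions are higher in hi-77-/- empty than in hi-77+/+ empty libraries, and Csf3r +58.7 kb and Csf3r -6.7 kb each have a single high group.

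Il11ra1 ran the other way with the deletion. The number of regions with a peak was 15, 14, 15 and 16 in hi-77+/+ empty, 11, 11, 10 and 8 in hi-77-/- empty, 7, 10, 8 and 12 in GATA2 and 12, 11, 7 and 8 in 9aa-Ins libraries. No hi-77-/- library reached the lowest hi-77+/+ one, and the mean fell by 5 regions with the deletion (SE 1.13, adjusted p = 0.00192). The window is rich in genes, and none of the 18 regions had Il11ra1 as the nearest gene. Near-identical copies of Il11ra1 exist in the mouse genome and only uniquely mapped reads were kept, so values inside the gene, including a lack of peaks, are uncertain. No region lay within 1 kb of the GENCODE 5' end or of either RefSeq 5' end, 60.5 and 62.3 kb from it. All 18 regions lay upstream of both RefSeq 5' ends, the nearest by 4.1 kb, so none is inside the gene as RefSeq places it. Inside the GENCODE gene but upstream of the RefSeq 5' ends, the score at 8.6 kb was 39.4, 50.4, 67.1 and 59.0 in hi-77+/+ empty. In hi-77-/- empty it was 24.3, 21.9, 41.5 and 0, a difference of -32.0 (adjusted p = 0.0135, and 0.058 without hi-77-/- empty replicate 4). At 7.3 kb it fell by 32.2 (adjusted p = 0.0107). The regions at 14.4 kb (near the Rpp25l promoter) and 15.8 kb had peaks among the 49000 only in hi-77+/+ empty libraries (the full lists held weak ones in 9aa-Ins replicates 1 and 4 and in replicate 1), and fell by 25.6 (adjusted p = 0.00385) and 20.8 (adjusted p = 0.00404). Upstream, regions in Dnaic1 at 93.0 and 85.7 kb and an intergenic one at 54.3 kb had differences of -41.15, -27.45 and -36.36 (adjusted p = 0.000272, 0.033 and 0.00101), of which that at 85.7 kb was lost without any of 6 of the 8 libraries (highest adjusted p = 0.0992). In the full lists the calls at -93.0, -85.7, +7.3 and +8.6 kb were lost (adjusted p = 0.0761, 0.307, 0.0593 and 0.385), and those at -54.3, +14.4 and +15.8 kb were kept. A different pattern was seen in an intron of Dnaic1 71.5 kb upstream. Its score was 78.5, 64.1, 67.1 and 66.1 in hi-77+/+ empty, 79.1, 77.7, 83.4 and 71.5 in hi-77-/- empty, 0, 12.3, 0 and 31.9 in GATA2 and 79.3, 80.0, 65.6 and 68.3 in 9aa-Ins. Only GATA2 libraries were low, by -66.9 against hi-77-/- empty (SE 6.43, adjusted p = 8.37e-07), and 9aa-Ins was higher than GATA2 by 62.3 (adjusted p = 2.33e-06).

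**Figure D4:**
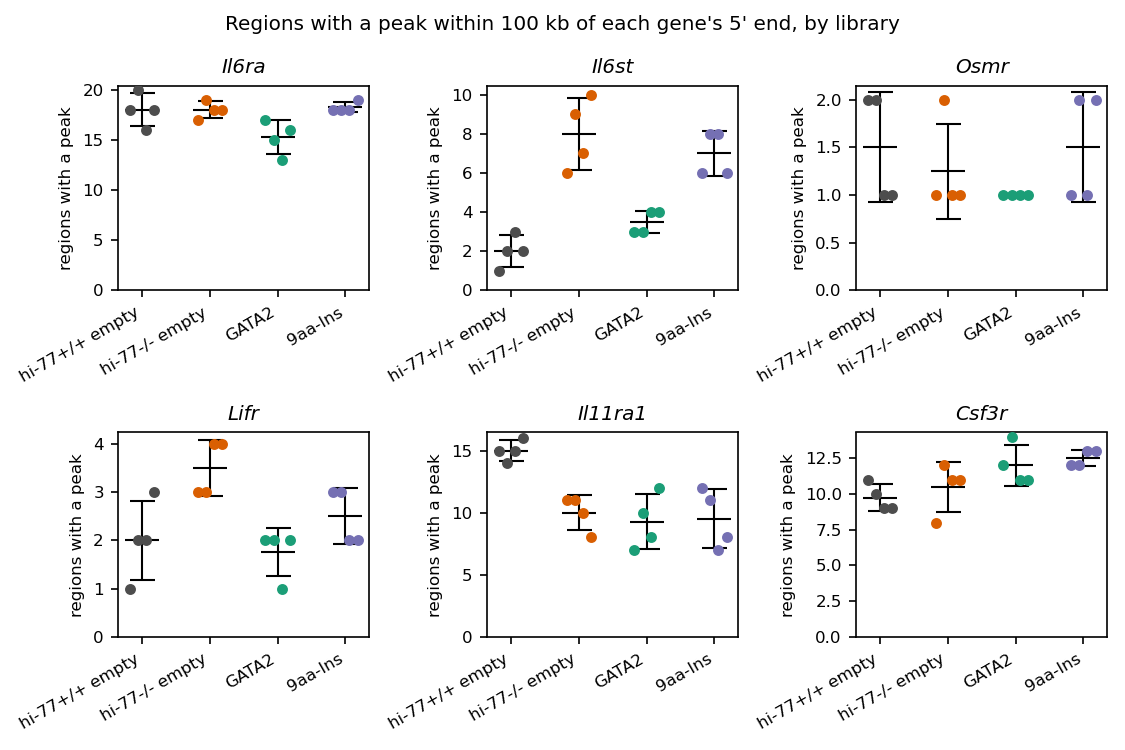
Number of regions with a peak within 100 kb of each gene's 5' end in each library (points), with the group mean and SD (n = 4). Il6st has 1 to 3 in hi-77+/+ empty and 6 to 10 in hi-77-/- empty libraries, and Il11ra1 has 14 to 16 in hi-77+/+ empty and 8 to 11 in hi-77-/- empty.

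Csf3r (chromosome 4, 126024550 to 126044440, plus strand) had a region with high scores in GATA2 and another with high scores in 9aa-Ins. At 58.7 kb downstream, in an intron of Oscp1 with Lsm10 nearest (chr4:126082997-126083456), the score was 73.0, 66.9, 86.7 and 77.3 in GATA2 and 0 in every hi-77-/- empty and 9aa-Ins library, with 24.2, 0, 0 and 0 in hi-77+/+ empty. The difference was 76.0 against hi-77-/- empty (SE 6.73, adjusted p = 3.29e-07) and 9aa-Ins was lower than GATA2 by -76.0 (adjusted p = 4.46e-07). The full lists held weak summits of 10, 4, 0 and 5 stacked fragments in hi-77+/+ empty, 5, 5, 0 and 0 in 9aa-Ins and 20, 18, 32 and 26 in GATA2 libraries. At 6.7 kb upstream (chr4:126017577-126018051, intergenic, Csf3r nearest) the score was 55.5, 61.0, 52.0 and 50.1 in 9aa-Ins, 0 in every hi-77+/+ and hi-77-/- empty library and 0, 2.77, 0 and 12.2 in GATA2. The difference was 54.6 against hi-77-/- empty (SE 5.36, adjusted p = 1.07e-05) and 50.9 against GATA2 (adjusted p = 2.42e-06). With all deposited peaks the first of these did not pass the test (41.18, adjusted p = 0.177). The full lists held summits of 19 to 27 stacked fragments there in 9aa-Ins and of 0 to 8 in each other group. The 200 bases around each summit, from the mm10 plus strand, are shown because each region had high scores in 1 group. They held none of the 6 motifs as written above. The Csf3r -6.7 kb window does hold the letters TTGCACAA, more than once, which the CEBP pattern used here cannot match.
Csf3r +58.7 kb, chr4:126083131-126083330: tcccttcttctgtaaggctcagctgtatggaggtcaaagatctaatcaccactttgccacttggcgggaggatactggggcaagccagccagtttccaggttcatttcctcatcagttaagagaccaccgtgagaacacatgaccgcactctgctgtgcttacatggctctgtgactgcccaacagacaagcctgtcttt
Csf3r -6.7 kb, chr4:126017749-126017948: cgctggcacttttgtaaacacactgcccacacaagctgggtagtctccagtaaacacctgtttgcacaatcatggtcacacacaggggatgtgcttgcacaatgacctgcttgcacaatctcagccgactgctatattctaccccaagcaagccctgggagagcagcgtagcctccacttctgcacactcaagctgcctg
No match in such a window says only that these letters are not in it.

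The Csf3r promoter region (chr4:126024398-126024951) had a peak in every 9aa-Ins library, at 20.9, 22.6, 24.9 and 40.9. It had none in the GATA2 libraries, 1 of 7.53 in hi-77-/- empty and 1 of 32.6 in hi-77+/+ empty. It was higher in 9aa-Ins than in hi-77-/- empty by 25.4 (adjusted p = 0.0374), which was lost without any of 7 of the 8 libraries in turn (highest adjusted p = 0.116), and than in GATA2 by 27.3 (adjusted p = 0.00836). In an intron of Oscp1, the region at 40.9 kb had peaks in both GATA2 (65.8, 55.1, 44.3 and 3.03) and 9aa-Ins (57.5, 51.2, 56.6 and 57.0) and only 1, of 2.81, in hi-77-/- empty libraries. Its differences from hi-77-/- empty were 41.4 (adjusted p = 0.00455) and 54.9 (adjusted p = 0.00138). Neither call was kept with the shorter list of peaks or among peaks with -log10 q of 5 or more, and the first was also lost with 50% coverage or with only the 2 groups in the fit. At 43.0 kb only 9aa-Ins was clearly above 0, by 22.2 against hi-77-/- empty (adjusted p = 0.00199) and 20.8 against GATA2 (adjusted p = 0.000959). The strong region at 61.6 kb, near Lsm10, was lower in GATA2 than in hi-77-/- empty by -11.9 (adjusted p = 0.000734) and higher in 9aa-Ins than in GATA2 by 8.52 (adjusted p = 0.00997). With the deletion, regions at the Mrps15 promoter (22.6 kb, -5.66, adjusted p = 0.0483) and in Stk40 (89.6 kb, -36.3, adjusted p = 0.0163) were lower. The first was lost without any of 6 of the 8 libraries (highest adjusted p = 0.147) and the second without hi-77-/- empty replicate 1 (adjusted p = 0.0614). Both calls were lost with all deposited peaks (-2.48 and -17.6, adjusted p = 0.0755 and 0.311). The number of Csf3r regions with a peak passed no test. Covered bases were 5057 ± 592 in hi-77-/- empty and 6822 ± 912 in 9aa-Ins libraries (SD, n = 4, two-sided exact permutation p = 0.0286, the smallest possible). The 9aa-Ins mean was above that of hi-77-/- empty at every receptor gene but Lifr, and no share over all genes was computed.

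A stricter rule asked for a ranked peak in 4 of 4 libraries of one group and in 0 of 4 of the other. By it, the deletion opened 4 of the 89 regions and closed 1 (3.59% and 2.11% of all 90549 regions). The opened ones were 3 near Il6st and 1 in Lifr, and the closed one was Il11ra1 +15.8 kb. GATA2 opened 1 (Csf3r +58.7 kb) and closed 4 (1.73% and 2.23%), of which 2 were near Il6st and 1 each near Il6ra and Lifr. 9aa-Ins opened 2 against hi-77-/- empty, both near Csf3r, and closed none (1.35% and 0.171%). Against GATA2, 9aa-Ins opened 4 and closed 1 (2.97% and 1.47%).

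Of 36 other genes of the pathway, 31 had a region within 1 kb of the 5' end. With the deletion the promoter score was higher in 5 and lower in 2 (14.1% and 16.5% of 10508 promoter regions). Among the higher ones were the ligand genes Osm and Ebi3, Stat3, which encodes a STAT factor, and the target Pim1, and the lower ones were Tyk2, a JAK kinase, and Il27ra, which encodes the IL-27 receptor chain that pairs with gp130. Il27ra scored 73.4, 81.4, 67.1 and 69.2 in hi-77+/+ empty and 0 in every hi-77-/- library, a difference of -72.8 (adjusted p = 2.2e-08). Il27ra lies on chromosome 8, where regions with a peak in all libraries had a median deletion difference of -5.66, against -0.82, 0.25, -0.06 and 1.84 on chromosomes 3, 4, 13 and 15, which hold the 6 receptor genes. The median was 3.32 on chromosome 11, where Osm (difference 7.82) and Stat3 (2.23) lie. Of the higher promoter calls, Ebi3 was lost without any of 6 of the 8 libraries, Stat3 without any of 5 and Pim1 without either of 2 (highest adjusted p = 0.125, 0.0954 and 0.0559). In GATA2 against hi-77-/- empty, 0 promoters were higher and 3 lower (3.84% and 3.12%), namely Osm, Clcf1 (a ligand of the ciliary neurotrophic factor receptor) and Junb, of which Clcf1 was lost without either of 2 libraries and Junb without any of 4 (highest adjusted p = 0.0796 and 0.103). In 9aa-Ins against hi-77-/- empty, 0 were higher and 0 lower by limma (0.856% and 0.504%), with 4 at an unadjusted p under 0.05. Against GATA2, 4 were higher (Osm, Clcf1, Ebi3 and Junb) and 0 lower (3.3% and 3.32%). Over the same 36 genes, the number of regions within 100 kb was higher in 8 and lower in 8 with the deletion (11% and 20.9% of all genes), higher in 3 and lower in 2 with GATA2 (4.69% and 6.43%), changed in 0 with 9aa-Ins (3 at an unadjusted limma p under 0.05), and was higher in 4 and lower in 0 in 9aa-Ins against GATA2 (10.1% and 3.13%). Windows of neighbouring genes share regions, so these genes do not count separately. Cntfr, lower with the deletion, had the same number as Il11ra1 in every library. Stat3, Stat5a and Stat5b, all higher with the deletion, lie close together on chromosome 11. Osm was at 87.0 ± 1.40 in hi-77-/- empty, 78.5 ± 0.0533 in GATA2 and 86.7 ± 1.02 in 9aa-Ins libraries (SD, n = 4, GATA2 difference -8.57, adjusted p = 0.00603).

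Genes more than 1 Mb away with a summed rank score most like that of each receptor gene over the 16 libraries were Rnf213 and the overlapping pair Olfr56 and 9930111J21Rik1 for Il6st (Pearson r = 0.958 to 0.966), Birc5, Ptch1 and Tha1 for Il6ra (0.954 to 0.961), Cracr2a, Angptl2 and Tusc1 for Lifr (0.933 to 0.943), Capn8, Terf2 and Zfp772 for Il11ra1 (0.960 to 0.962), Nr2c1, Slfn9 and Glra2 for Csf3r (0.855 to 0.893), and Klhl11, Tmem89 and Abl1 for Osmr (0.763 to 0.814). These correlations describe 16 libraries that share 4 groups and were chosen as the highest of all genes.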

How the data were processed

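ATAC-Seq peak lists of 16 libraries were used. Per the labels and the study's methods, the authors trimmed reads (Trim Galore 0.4.1), aligned them to mm10 (Bowtie2 2.2.5), removed duplicates (Picard 2.26.0), kept uniquely mapped reads, offset the read ends and ran MACS2 on every library separately. The deposited fold enrichment (a ratio of the summit pileup to the background of that library), -log10 p and -log10 q, and the summit offset come from that caller. The background was 1 constant per library (0.301 to 0.890), from which whole summit pileups were recovered for 100% of peaks (tolerance 0.02). Since -log10 p took only 102 to 129 distinct values among the 49000 peaks, tied peaks shared their mean rank, and the limit fell within a block of 2407 to 9094 tied peaks.

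The 49000 peaks per library on chromosomes 1 to 19 and X were merged where they overlapped by 1 bp. Rank scores and numbers of regions per gene were compared with limma 3.58.1 (trend, robust), all groups in one fit. The threshold was an adjusted p of 0.05. Single values were compared with exact permutation tests (scipy). The scripts were tested on simulated data, and a region that passed no test may still differ. Regions were named when they were a receptor promoter, passed the rank score test, or had a peak in 4 of 4 against 0 of 4 libraries. Like-patterned genes were the 3 of highest Pearson r. Motifs were searched in 200 bases around each region's median summit. The receptor genes, pathway lists and tests were chosen with earlier results of these data known. Alternatives were all deposited peaks, 24500 peaks, a -log10 q of at least 5, peaks under 1 kb, peaks covering 50% of a region, summit windows, nearest-gene assignment, a 50 kb window, other fits and scales and leaving out each library. The alternatives on tied peaks, and those on covered bases, were chosen after seeing the data. Read counts were not used here. The name and values of 1 pathway gene are not reported here.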

Additional observations from a re-analysis of the deposited data

Results flagged for a closer look

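In groups of 4 libraries, a value was singled out when its gap to the nearest other library exceeded Dixon's critical share of the range of the group. Chance alone marks about 1 in 20 groups, and a group with a peak in a single library always meets the rule. No explanation was tested.

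Single libraries with a peak where the other 3 had none were hi-77+/+ empty replicate 3 at Il6st -24.2 kb (15.2), hi-77+/+ empty replicate 4 at Lifr +1.9 kb (17.4), and hi-77+/+ empty replicate 1 at the Csf3r promoter (32.6) and at Csf3r +58.7 kb (24.2). In hi-77-/- empty they were replicate 4 at the Csf3r promoter (7.53), replicate 2 at Csf3r +40.9 kb (2.81) and Il11ra1 +7.3 kb (2.81), and replicate 1 at Il11ra1 -54.3 kb (24.3). In GATA2 they were replicate 3 at Csf3r +43.0 kb (5.56), replicate 1 at Il11ra1 -54.3 kb (18.1), replicate 4 at Il11ra1 -85.7 kb (31.9) and Il6ra +49.3 kb (3.03), and replicate 2 at Il6ra +7.5 kb (12.3). In 9aa-Ins they were replicate 1 at Il11ra1 +7.3 kb (2.01) and replicate 3 at Il6st -30.6 kb (18.3).

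Of the other values, hi-77+/+ empty replicate 2 was at 0 at Il11ra1 +14.4 kb, where the other libraries were at 32.6 to 36.5. The hi-77-/- empty replicate 3 was low at Il6st -36.2 kb (57.9) and replicate 2 was high at Il11ra1 -85.7 kb (29.9). The 9aa-Ins replicate 4 was high at Csf3r +22.6 kb (91.8) and low at Il6ra +51.9 kb (85.4), and replicate 2 was low at Csf3r +40.9 kb (51.2). By gene, 9aa-Ins replicate 4 had 19 Il6ra regions against 18 in each other library, GATA2 replicate 3 had 1 Lifr region against 2, and hi-77-/- empty replicate 2 had 2 Osmr regions against 1 and 406 bp covered near Osmr.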

How the results depend on the processing

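Of the 69 calls in named regions near the receptor genes, 55 were kept without any 1 library. Of these, 23 were also kept under every alternative that could be evaluated for them. That was 12 alternatives for most calls and 11 for some, such as those at Il6st +92.7 kb. Depth is unknown, which limits what a missing peak means. The cause of the changes below was not tested. Dropping peaks of 1 kb or wider selects on width, whatever the rank of a peak. Counts are of regions near the 6 genes, the deletion is hi-77-/- empty minus hi-77+/+ empty, and GATA2 and 9aa-Ins are against hi-77-/- empty unless stated. Shares over all regions were computed for the main setting only. The counts below, including those by non-overlap, therefore have no background share and cannot be read as particular to these genes.

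Counting only nearest genes, the deletion had 9 higher, 0 lower and 0 closed regions. GATA2 had 1 higher, 7 lower, 0 opened and 2 closed, 9aa-Ins 0 lower and 1 opened, and 9aa-Ins against GATA2 11 higher, 1 lower and 0 closed. In the last comparison the region number differed by 1.25 for Il6ra and 1.75 for Il6st, no longer past the test. Where a peak had to cover 50% of a region, the deletion had 9 higher and 2 closed and 9aa-Ins 1 lower and 0 opened. The promoter differences were then -48.3 for Il6ra with GATA2 and 60.03 for Il6st with the deletion, no longer past the test. Il6ra -51.3 kb (26.3, 9aa-Ins) and the Osm promoter (-39.2, deletion) changed sign, and the region number passed for Il6ra with GATA2 (-5.5) and Lifr in 9aa-Ins against GATA2 (1.75).

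With the shorter list of peaks per library, the deletion had 4 lower and 0 closed, 9aa-Ins 0 higher, 4 lower and 1 closed, and 9aa-Ins against GATA2 11 higher. The region number then passed for Il6ra (4 with the deletion, -2.75 with GATA2), Lifr (1.25, 9aa-Ins against GATA2) and Csf3r (1.25 with GATA2, 1.5 with 9aa-Ins), and no longer for Il6ra in 9aa-Ins against GATA2 (0.5). Keeping only peaks with -log10 q of 5 or more, the deletion had 5 lower, GATA2 1 higher, 9aa-Ins 3 higher, 1 lower and 1 opened, and 9aa-Ins against GATA2 1 lower and 14 opened. The region number passed for Il6ra with GATA2 (-4.75), for Csf3r with 9aa-Ins (4), and in 9aa-Ins against GATA2 for Osmr (1.25), Lifr (1.75), Il11ra1 (4.25) and Csf3r (5.5). The Csf3r promoter (53.3, 9aa-Ins) no longer passed.

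With all deposited peaks, the deletion had 2 closed, GATA2 20 lower, 9aa-Ins 2 higher, 1 lower and 1 opened, and 9aa-Ins against GATA2 0 closed. The region number no longer passed for Il6st with GATA2 (-4) and Lifr (1 with the deletion, -2.75 with GATA2). It passed with 9aa-Ins for Osmr (2) and Csf3r (7), and against GATA2 for Osmr (2.75), Lifr (4.5), Il11ra1 (6.5) and Csf3r (5.75). Covered bases lost their call for Osmr with GATA2 (-165) and Csf3r with 9aa-Ins (2374). They gained one with 9aa-Ins for Osmr (353) and Il11ra1 (1582), and against GATA2 for Il11ra1 (2289) and Csf3r (3094). The Csf3r promoter (39.9, 9aa-Ins) no longer passed.

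Among peaks narrower than 1 kb, 9aa-Ins had 1 lower, 1 opened and 1 closed, and 9aa-Ins against GATA2 5 lower and 2 closed, with an Il6ra region number of 2.5, no longer past the test. Reversals were the Il6ra promoter (41.1 with GATA2, -64.2 in 9aa-Ins against GATA2), Il6ra -49.3 kb (-18.95, 9aa-Ins against GATA2), Il6st -24.2 kb (-80.1, the same), the Osm promoter (2.15 with GATA2, -40.8 in 9aa-Ins against GATA2), and the Stat3 (-24.4) and Pim1 (-5.68) promoters with the deletion. With summit windows, 9aa-Ins against GATA2 had 4 lower and 2 closed and an Il6ra region number of 2.25, no longer past the test. Il6ra -49.3 kb (-19.5 with the deletion, 0.64 with GATA2), and the Osm (-2.57) and Junb (-19.1) promoters in 9aa-Ins against GATA2, changed sign. The Csf3r promoter (25.4, 9aa-Ins) no longer passed there, without a filter on regions, or on a log2 rank scale (0.44).

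In a 50 kb window, 9aa-Ins against GATA2 had region numbers of 1.5 for Il6ra and 1.75 for Il6st, no longer past the test, while Csf3r passed with 9aa-Ins (3.25) and against GATA2 (1.75). Fitting only 2 groups gave 3 lower with the deletion and 0 lower with 9aa-Ins, and non-overlap of rank scores gave 5 lower in each. Leaving out the tied peaks at the limit gave 0 closed with the deletion and an Il6ra region number of 2.25 in 9aa-Ins against GATA2. There, without a filter, and with ties ordered by position, 9aa-Ins had 1 lower. The exact permutation test no longer passed the Lifr region number with the deletion (1.5).

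Same-numbered libraries did not deviate together (correlations -0.031 to 0.082 over regions), so the numbers did not pair them. With the replicate number as a block, 9aa-Ins had 1 lower and the Csf3r promoter (25.4, 9aa-Ins) no longer passed.

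Leaving out each library in turn, the Il6ra region number ranged from -3.33 to -2 with GATA2 and from 2.25 to 3.58 in 9aa-Ins against GATA2, and the Lifr one from 1.17 to 1.83 with the deletion and from -1.92 to -1.5 with GATA2. The Il6ra promoter ranged from 2.45 to 4.62 with the deletion and the Csf3r promoter from 20.9 to 27.6 with 9aa-Ins. Each crossed the threshold at least once.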
